A study of Mus musculus with 24 samples.

Results

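The genes described here are 30 macrophage and MHC class II genes, measured by RNA-seq in whole mouse pancreas. They were chosen by symbol, as textbook genes of antigen presentation and of tissue macrophages, and all 30 were found among the 51912 Ensembl genes of the deposited count table. All 30 also passed the filter on low counts, so each was tested in every comparison. The 24 animals were C57Bl/6J mice, an inbred laboratory strain, in 8 groups of 3 defined by condition, sex and time point, and all comparisons are between separate mice. Circadian disrupted mice, 6 males and 6 females, were set beside normal circadian mice, also 6 males and 6 females. Collection fell on day 1 for all early mice, and on day 9 for late males but day 8 for late females. Sex and day of the late mice thus cannot be told apart. The zeitgeber time was 8 h for early mice, 176 h for late females and 200 h for late males. This is hour 8 of the day in every group, so the values come from a single hour of the cycle. How the rhythm was disrupted is not given in the sources used here. Because the samples are whole tissue, fewer cells of a type and less RNA per cell cannot be told apart in any value below.

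MHC class II molecules are pairs of an alpha and a beta chain that carry peptides from the endosome to the cell surface, where helper T cells read them. The invariant chain Cd74 guides the pair to the endosome, cathepsin S and legumain cut proteins there, and H2-DM loads the peptide. The coactivator Ciita switches on the class II chains, Cd74 and H2-DM in macrophages, dendritic cells and B cells, so these genes are not markers of macrophages alone. The pancreas holds resident macrophages between the acini and inside the islets, and monocytes from blood can add to them. In mice of the b haplotype, to which C57Bl/6 belongs, H2-Eb1 is transcribed but its alpha partner is defective, so the I-E pair is not made.

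The promoters of 3 genes show the element that links the class II genes to Ciita, the X box followed by the Y box. They are RefSeq promoters of GRCm38.p6, 250 bases before to 50 bases after the start of the gene, printed 5′ to 3′ on the gene's own strand, with the X box and the Y box in capitals. The promoter of H2-DMb1, one chain of H2-DM, lies at chr17:34152941-34153240 on the plus strand, that of the alpha chain H2-Aa at chr17:34287774-34288073 on the minus strand, and that of the beta chain H2-Eb1 at chr17:34305617-34305916 on the plus strand.
H2-DMb1: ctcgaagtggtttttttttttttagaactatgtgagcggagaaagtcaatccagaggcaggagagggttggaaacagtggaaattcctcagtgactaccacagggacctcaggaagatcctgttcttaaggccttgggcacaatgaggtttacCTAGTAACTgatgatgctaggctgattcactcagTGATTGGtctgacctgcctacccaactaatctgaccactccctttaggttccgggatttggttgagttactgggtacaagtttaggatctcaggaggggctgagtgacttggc
H2-Aa: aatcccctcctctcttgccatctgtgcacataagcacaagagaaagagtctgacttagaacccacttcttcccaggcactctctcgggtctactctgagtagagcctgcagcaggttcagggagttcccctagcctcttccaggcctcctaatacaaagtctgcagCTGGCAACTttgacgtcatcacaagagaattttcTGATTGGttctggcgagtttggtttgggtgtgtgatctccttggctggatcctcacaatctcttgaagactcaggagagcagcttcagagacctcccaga
H2-Eb1: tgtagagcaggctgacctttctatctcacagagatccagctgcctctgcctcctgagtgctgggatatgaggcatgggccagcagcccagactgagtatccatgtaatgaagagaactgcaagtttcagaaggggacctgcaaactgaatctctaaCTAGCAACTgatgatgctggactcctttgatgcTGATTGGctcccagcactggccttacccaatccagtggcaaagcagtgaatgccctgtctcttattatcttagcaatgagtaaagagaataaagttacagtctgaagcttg
The bases between the X box and the Y box numbered 25 in H2-DMb1, 25 in H2-Aa and 24 in H2-Eb1. The search used the letters CTNGNAACT for the X box and TGATTGG for the Y box on both strands, and the X box letters were chosen after these promoters had been read. The X box letters were in 4.67% and the Y box letters in 9% of 27025 genes with a promoter, and both together in 0.392%. Of the 22 genes of this group that have a promoter to search, these 3 held both, and Cd68 held the Y box letters without the X box letters. H2-DMa, the other chain of H2-DM, held neither. H2-Ab1 and Cd74 had no promoter to search. The E-box CACGTG, the letters bound by the clock factors, was in the promoter of Lgmn alone among the 22 and in 8.09% of all genes. The D-box TTATGTAA, another clock element, was in that of Ms4a7 alone and in 1.11% of all genes. These matches describe letters in a window and say nothing of binding.

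Sequencing depth was 31325543 to 62390408 counts per mouse. Disrupted early female 1 stood apart by lymphocyte RNA, with a summed level of 14 B cell genes of 130.7 CPM (counts scaled to a common library size) and of the T cell genes of 12.75 CPM. Disrupted late female 1 was next for the B cell surface genes Cd79a and Ms4a1, but not for every lymphocyte gene. Its immunoglobulin transcript Ighm, at 24.7 CPM, was below that of 5 other mice, and its 14 B cell genes summed to 49.2 CPM, below disrupted late male 1 at 61 CPM and normal early female 3 at 56.5 CPM. The B cell receptor subunit Cd79a was at 5.64 CPM in disrupted early female 1 and at 3.25 CPM in disrupted late female 1, and at 1.31 CPM or less in the other 22 mice. Glycam1, a mucin of lymph node vessels, had 941 counts in disrupted early female 1, at most 18 in any other mouse and 0 in 21 mice. Disrupted early female 1 was also the highest of all 24 mice for 22 of the 30 genes, among the highest 3 for 27 and above the median for all 30. Results are given with and without disrupted early female 1 and disrupted late female 1, called the lymphocyte-rich libraries below. They were the 2 highest mice for Cd79a. Disrupted late male 1 and normal early female 3 were kept, although their B cell sums exceeded that of disrupted late female 1. Normal early female 3 was among the highest 3 mice for 19 genes and disrupted late male 1 for 12, while disrupted late female 2 was the lowest mouse for 7 genes and normal late male 2 for 6.

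Per kilobase of exon, the most abundant transcript of the group was Cd74, at 18.7 ± 9.14 CPM per kb (SD over 24 mice). Lyz2, the lysozyme of myeloid cells, followed at 14.4 ± 6.61 CPM per kb, and the spread of the pair overlapped. The complement chains C1qa and C1qb, made in tissue mainly by macrophages, had 8.53 ± 3.75 and 5.28 ± 1.55 CPM per kb. The class II chains came next, H2-Eb1 at 4.77 ± 2.09, H2-Ab1 at 3.61 ± 1.58 and H2-Aa at 3.23 ± 1.59 CPM per kb. These SDs are between mice, and all genes were measured in the same mice. Overlap of the SDs therefore does not decide the order of neighbours, which was not tested within mice. At the low end were Ciita at 0.0875 ± 0.0753, Ms4a7 at 0.0861 ± 0.0328 and the integrin Itgax (CD11c) at 0.0782 ± 0.0619 CPM per kb. No gene of the group was at 0 in any mouse, and the thinnest was Aif1, the calcium-binding protein Iba1, with 1 to 25 counts. By comparison, 11 acinar genes, of enzymes and transcription factors, were listed as a check of the tissue. Their summed CPM came to 27.0% to 34.0% of a library after scaling. Several of the 30 genes share sequence or position with another gene: Lyz2 with Lyz1 and H2-DMb1 with H2-DMb2 as near copies, H2-Eb1 with the antisense Gm20513, and H2-DMa, Ciita, Csf1r, Itgam and Cx3cr1 with genes that overlap them. The strand setting of the counting is not given in the sources used here, so these values carry that uncertainty.

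**Figure D1:**
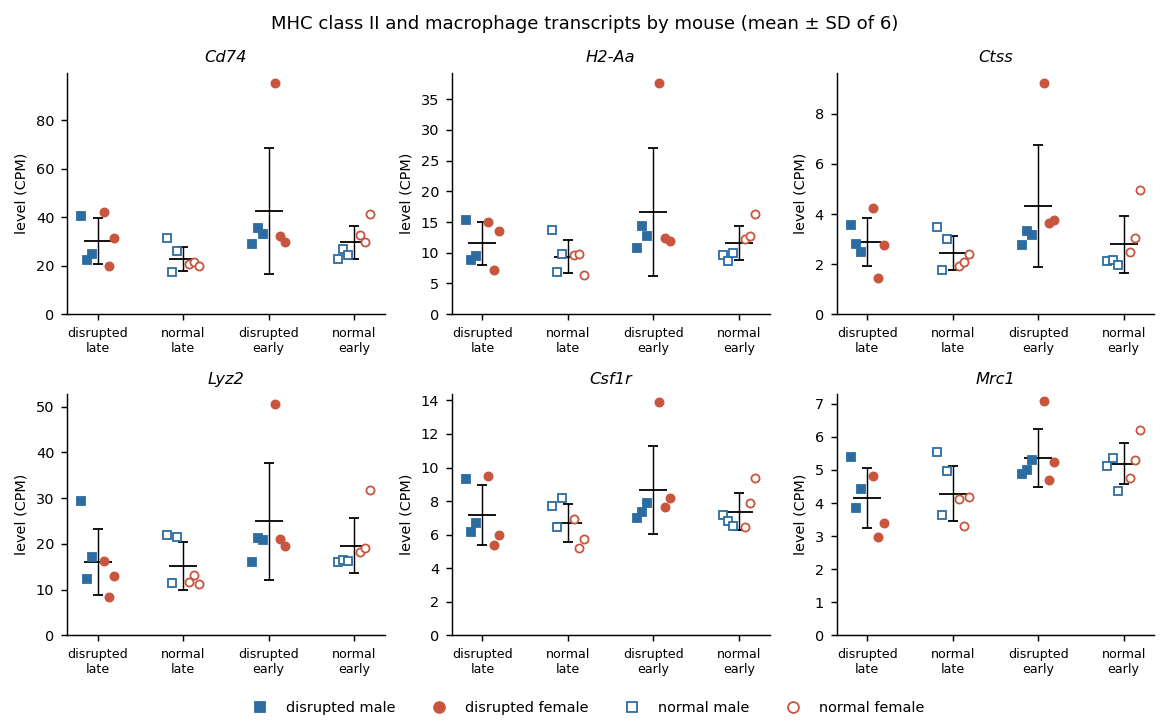
Level in CPM of the invariant chain Cd74, the class II chain H2-Aa, cathepsin S (Ctss), Lyz2, the receptor Csf1r and the mannose receptor Mrc1 in each of the 24 mice, with bars for mean ± SD of 6 mice. Disrupted early female 1 is the highest point for all 6 genes (Cd74 95.6 CPM), and the remaining mice of the disrupted and normal groups overlap.

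At the early time point, disrupted pancreas held more of most of these transcripts than normal pancreas by the fitted values, but no gene passed the test. Of the 30 genes, 28 had a positive log2 fold change and 2 a negative one, with a median of 0.34, against a median of 0.00 over all genes tested. None was called at an adjusted p below 0.05 by edgeR's quasi-likelihood test or by DESeq2, while edgeR called 4.56% of the 14000 genes tested. An unadjusted p under 0.05 in edgeR was held by 4 of the 30, beside 2482 of the 14000. The median was 0.09, with 20 of 30 positive, without disrupted early female 1 and disrupted late female 1. The median also changed sign, to -0.13 with 6 of 30 positive, when the level of B and T cell genes was a covariate. Within males it was 0.34 and within females 0.39, with 26 of 30 positive in each. The summed level of 14 B cell genes ran from 13 to 130.7 CPM in disrupted early mice (median 22.8) and from 4.47 to 56.5 CPM in normal early mice (median 10.1), and all 14 had a positive fold change, with a median of 1.54 and none called. The T cell genes, 6 of 15 above the filter on low counts, were all positive too, with a median of 1.95, and the T cell kinase Lck was called, at 2.72 ± 0.76 (adjusted p = 0.0235, edgeR). Of 7 endothelial genes, all positive with a median of 0.20, the receptor Kdr was called at 0.23 ± 0.06 (adjusted p = 0.0362). The part of these cells in the values of the 30 genes beyond that covariate was not tested.

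Among the class II chains and their partners, Cd74 had 29.1, 35.4 and 33.3 CPM in disrupted early males and 95.6, 32.2 and 29.7 CPM in disrupted early females, against 22.9, 26.7 and 24.4 CPM in normal early males and 32.7, 29.6 and 41.4 CPM in normal early females. All 3 disrupted males were above all 3 normal males, while the females overlapped. The log2 fold change over both sexes was 0.50 ± 0.27 (SE, adjusted p = 0.352, edgeR), and 0.12 without disrupted early female 1 in a fit that left out that mouse alone. H2-Aa, H2-Ab1 and H2-Eb1 had fold changes of 0.51, 0.51 and 0.36, which were 0.12, 0.17 and -0.04 without the lymphocyte-rich libraries. H2-DMa and H2-DMb1 had 0.34 and 0.46, which were 0.14 and 0.13 without them. Ctss, the cathepsin that trims the invariant chain, had 2.77, 3.34 and 3.18 CPM in disrupted early males and 9.23, 3.64 and 3.77 CPM in disrupted early females, against 2.11, 2.17 and 1.96 CPM in normal early males and 2.47, 3.04 and 4.96 CPM in normal early females. Again the males did not overlap and the females did. Its log2 fold change was 0.62 ± 0.27 (adjusted p = 0.235, edgeR), and 0.33 without disrupted early female 1 (adjusted p = 0.527). It was 0.58 with an adjusted p of 0.0488 once the level of adipocyte genes was a covariate, a setting added after the data were seen. Ciita had a fold change of 0.76 ± 0.44 (adjusted p = 0.387), 0.18 without the lymphocyte-rich libraries, with 3.83 CPM in disrupted early female 1 and 0.728 to 0.879 CPM in the other 5 disrupted early mice, against 0.423 to 1.18 CPM in normal early mice.

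No macrophage or monocyte gene passed either. Lyz2 averaged 24.9 ± 12.7 CPM in disrupted early pancreas and 19.6 ± 6.02 CPM in normal early pancreas (SD over 6 mice each), a log2 fold change of 0.33 ± 0.27 (adjusted p = 0.581, edgeR). Csf1r, the receptor on which tissue macrophages depend, averaged 8.67 ± 2.61 CPM in disrupted and 7.37 ± 1.12 CPM in normal early mice, a fold change of 0.22 ± 0.16 (adjusted p = 0.516). Adgre1 (F4/80), Cd68, Mpeg1 and Aif1 had fold changes of 0.19 to 0.49, and the C1q chains of 0.01 to 0.21. The smallest p of the 30 belonged to Ms4a7, a membrane protein of resident macrophages, which had 0.336 to 0.708 CPM in disrupted and 0.16 to 0.468 CPM in normal early mice. Its fold change of 0.69 ± 0.29 did not pass (adjusted p = 0.194, edgeR). The haemoglobin scavenger receptor Cd163 and the high-affinity IgG receptor Fcgr1 were the genes with negative values, at -0.17 ± 0.14 and -0.13 ± 0.33. The adaptors Fcer1g and Tyrobp and the integrins Itgam (CD11b) and Itgax ran from 0.10 to 0.60, and Itgax, the highest of them, was at -0.02 without the lymphocyte-rich libraries. Among the monocyte receptors, the fractalkine receptor Cx3cr1 had a fold change of 0.56 ± 0.26 (adjusted p = 0.261), the Ccl2 receptor Ccr2 of 0.44 ± 0.21 (adjusted p = 0.27) and the lipopolysaccharide coreceptor Cd14 of 0.19 ± 0.25.

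**Figure D2:**
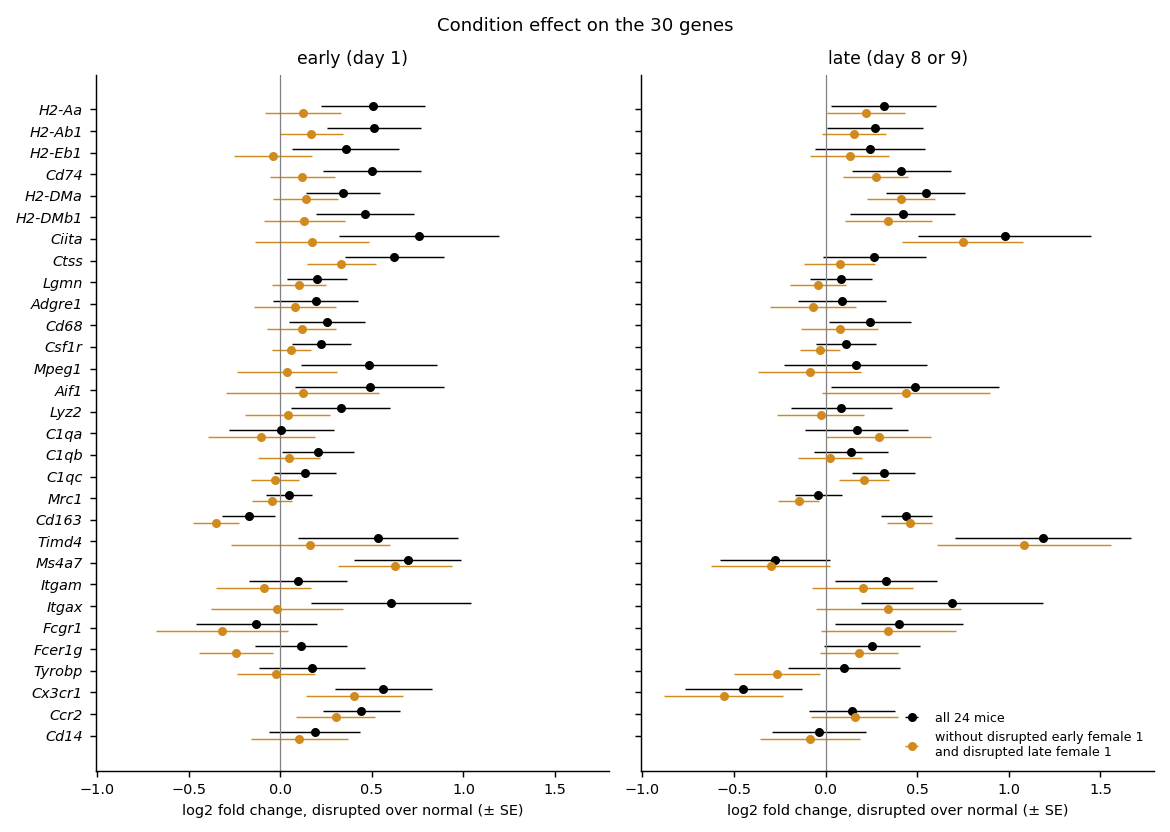
Log2 fold change, disrupted over normal, with its SE for each of the 30 genes at the early (left) and late (right) time point, fitted on all 24 mice (black) and without disrupted early female 1 and disrupted late female 1 (orange). At the early time point the median is 0.34 on all mice and 0.09 without these libraries.

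At the late time point the picture was of the same kind: 26 of 30 genes had a positive log2 fold change, the median was 0.25 against 0.00 over all genes tested, and no gene passed. Over all genes 1.35% were called, and none of the 30 was called by edgeR or DESeq2. In edgeR 3 of the 30 had an unadjusted p under 0.05, beside 2050 of the 14000 genes tested. The median was 0.16 without both lymphocyte-rich libraries, 0.16 without disrupted late female 1 alone, 0.10 without disrupted late male 1, 0.15 without normal late male 2, and -0.17 with the B and T cell covariate. The 14 B cell genes summed to 1.57 to 61 CPM in disrupted late mice (median 20.9) and to 0.991 to 10.2 CPM in normal late mice (median 3.2), and all 14 had a positive fold change. The T cell genes were positive in 6 of 6, with a median of 1.05 and none called. The part of these cells in the medians of the 30 genes beyond that covariate was not tested. Cd74 had 40.6, 22.5 and 24.9 CPM in disrupted late males and 42.3, 19.8 and 31.4 CPM in disrupted late females, against 31.3, 17.6 and 26.1 CPM in normal late males and 20.5, 21.7 and 19.8 CPM in normal late females. The groups overlapped, and the fold change was 0.41 ± 0.27 (adjusted p = 0.506, edgeR). H2-DMa had 0.55 ± 0.22 (adjusted p = 0.215), Ciita 0.98 ± 0.47 (adjusted p = 0.342), and the 3 class II chains 0.24 to 0.32.

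Cd163 had the smallest p of the 30 at the late time point. It had 5.64, 3.69 and 5.22 CPM in disrupted late males and 2.47, 2.53 and 2.72 CPM in disrupted late females, against 3.07, 2.92 and 3.76 CPM in normal late males and 2.33, 1.78 and 2.19 CPM in normal late females. The lowest disrupted male was just under the highest normal male, and all 3 disrupted females were above all 3 normal females. The log2 fold change was 0.44 ± 0.14 (adjusted p = 0.12, edgeR), and 0.46 with an adjusted p of 0.0453 without the lymphocyte-rich libraries. Timd4, a receptor for dying cells on long-lived resident macrophages, had a fold change of 1.19 ± 0.48 (adjusted p = 0.225, edgeR). Its highest mouse was disrupted late male 1 at 1.32 CPM. The other disrupted late mice had 0.121 to 0.519 CPM and the normal late mice 0.113 to 0.4 CPM. All 3 disrupted females (0.304 to 0.467 CPM) were above all 3 normal females (0.179 to 0.21 CPM), while the males overlapped. The counts of Timd4 were low, 4 to 52 per mouse over all groups. Cx3cr1 was at -0.45 ± 0.32 (adjusted p = 0.529), Ms4a7 at -0.28 ± 0.30 (adjusted p = 0.712), and Csf1r and Lyz2 at 0.11 ± 0.17 and 0.09 ± 0.28.

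The difference between the condition effects, late minus early, was called for none of the 30 genes by edgeR or DESeq2. Over all genes 4.77% were called. In edgeR 3 of the 30 had an unadjusted p under 0.05, beside 2515 of the 14000 genes tested. The median over the 30 was -0.08 on all mice. Over the fits that left out 1 mouse it ran from -0.23, without disrupted late female 1, to 0.16, without disrupted early female 1, so its direction depended on single mice. Cd163 came nearest, with a condition effect of 0.44 late and -0.17 early and a difference of 0.61 (adjusted p = 0.0792, edgeR). That difference was 0.81 with an adjusted p of 0.00611 without the lymphocyte-rich libraries, and 0.79 without disrupted early female 1, where it was called too. Leaving out disrupted late male 2 also brought it past the test, at 0.69. Cx3cr1 had the opposite order, a condition effect of -0.45 late and 0.56 early (difference -1.01, adjusted p = 0.178).

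In late against early within disrupted mice, single genes of the group passed. Cx3cr1 and Ccr2 fell and Cd163 rose, 3 of 30 genes, while 13.9% of all genes tested were called, so the share of called genes did not exceed that of all genes. By fitted value 28 of the 30 were lower late than early, with a median of -0.40 against -0.01 over all genes. The median was -0.24 without the lymphocyte-rich libraries, -0.11 without disrupted early female 1 and -0.05 with the B and T cell covariate. Genes of other cell types moved in the same comparison. Of 7 fibroblast and stellate cell genes, all negative with a median of -0.32, Pdgfra fell by 0.38 ± 0.09 (adjusted p = 0.00411) and Col3a1 by 0.59 ± 0.13 (adjusted p = 0.00534). Of 7 endothelial genes, 6 negative with a median of -0.21, Kdr fell by 0.43 ± 0.06 (adjusted p = 4.65e-05) and Egfl7 by 0.29 ± 0.10 (adjusted p = 0.0431). The T cell genes had a median of -1.42, 6 of 6 negative, and the B cell genes of -0.72, 14 of 14 negative, with none called in either list. The part of these cells in the values of the 30 genes beyond the covariate was not tested.

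Cx3cr1 (ENSMUSG00000052336, chr9:119901616-120069879, minus strand) is the receptor for the membrane-bound chemokine fractalkine, carried by patrolling monocytes and some resident macrophages. It had 0.279, 0.242 and 0.115 CPM in disrupted late males and 0.571, 0.236 and 0.47 CPM in disrupted late females, against 0.504, 1.22 and 0.781 CPM in disrupted early males and 1.55, 0.956 and 0.834 CPM in disrupted early females. Only disrupted late female 1 lay above the lowest early mouse, so the groups overlapped by that pair. The log2 fold change was -1.64 ± 0.29 (adjusted p = 0.000264, edgeR). It was -1.94 in males only and -1.36 in females only, called in each, and it was called in all 24 fits that left out 1 mouse (adjusted p up to 0.00157). The counts behind these values were low, 4 to 59 per mouse over all groups, and the annotated span of the gene overlaps 9 others. The ligand moved the same way: Cx3cl1, fractalkine itself, fell by 0.97 ± 0.20 on the log2 scale (adjusted p = 0.00169), with 0.432, 0.454 and 0.317 CPM in disrupted late males and 0.597, 0.641 and 0.453 CPM in disrupted late females, against 1.01, 1.25 and 0.781 CPM in disrupted early males and 0.866, 0.879 and 0.809 CPM in disrupted early females. All 6 late mice were below all 6 early mice.

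Ccr2 (ENSMUSG00000049103, chr9:124101950-124113557, plus strand) brings inflammatory monocytes out of bone marrow and into tissue. It had 1.02, 0.938 and 0.865 CPM in disrupted late males and 0.753, 0.675 and 0.89 CPM in disrupted late females, against 1.29, 1.82 and 1.24 CPM in disrupted early males and 2.31, 1.29 and 1.52 CPM in disrupted early females. All 6 late mice were below all 6 early mice. The fold change was -0.86 ± 0.22 (adjusted p = 0.00755, edgeR), called in all 24 fits without 1 mouse (adjusted p up to 0.029). In males only it was -0.61 and did not pass (adjusted p = 0.256), and in females only -1.13 (adjusted p = 0.021). The direct test between the sexes did not show that their falls differed. It was called in 0 of the 24 fits that left out 1 mouse (adjusted p = 0.484 to 0.871, edgeR). Its ligand Ccl2 was under the filter on low counts, with 0 to 42 counts per mouse.

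Cd163 (ENSMUSG00000008845, chr6:124304656-124330527, plus strand), the receptor that clears haemoglobin bound to haptoglobin, went the other way. It averaged 3.71 ± 1.41 CPM in disrupted late pancreas and 2.44 ± 0.69 CPM in disrupted early pancreas (SD over 6 mice each), with a log2 fold change of 0.54 ± 0.14 (adjusted p = 0.00942, edgeR) that was called in all 24 fits without 1 mouse. The higher values were those of the males. Disrupted late males had 5.64, 3.69 and 5.22 CPM and disrupted early males 2.16, 2.29 and 2.27 CPM, with no overlap, a fold change of 1.11 in males only (adjusted p = 0.000289). Disrupted late females had 2.47, 2.53 and 2.72 CPM and disrupted early females 3.8, 2.3 and 1.82 CPM, a fold change of -0.04 in females only (adjusted p = 0.926). The difference between the sexes, males minus females, was tested after these values were seen and came to 1.15 ± 0.28 (adjusted p = 0.0457, edgeR), 1 of 30 genes beside 0.929% of all genes. It was called in 8 of the 24 fits that left out 1 mouse, and without disrupted early female 1 it was 0.79 (adjusted p = 0.125). The late males were taken on day 9 and the late females on day 8, so sex and day cannot be told apart in this difference. A split by sex was also seen in normal circadian mice. Normal males rose from 1.96 to 2.57 CPM early to 2.92 to 3.76 CPM late. Normal females fell from 2.89 to 3.77 CPM early to 1.78 to 2.33 CPM late, and neither sex overlapped. The difference between the sexes was not tested in normal circadian mice.

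**Figure D3:**
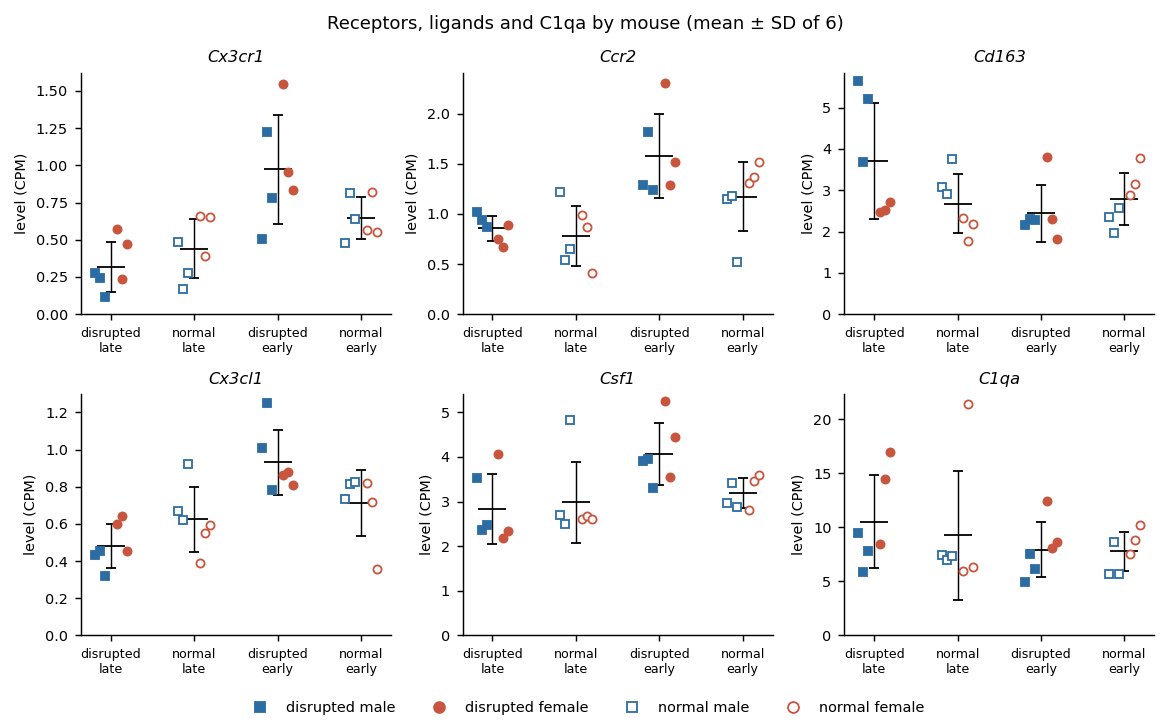
Level in CPM of the receptors Cx3cr1, Ccr2 and Cd163, the ligands Cx3cl1 and Csf1, and C1qa in each of the 24 mice, with bars for mean ± SD of 6 mice. All 6 disrupted late mice lie below all 6 disrupted early mice for Ccr2 and Cx3cl1, and the 3 disrupted late males (3.69 to 5.64 CPM) lie above the 3 disrupted early males (2.16 to 2.29 CPM) for Cd163.

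The rest of the group did not pass in this comparison. Mrc1, the mannose receptor of resident macrophages, was at -0.37 ± 0.13 with an adjusted p of 0.0512 in edgeR, and the call depended on the setting. It passed with DESeq2 (adjusted p = 0.0446) and without the lymphocyte-rich libraries (adjusted p = 0.0308), but in only 5 of the 24 fits that left out 1 mouse. Without disrupted early female 1 it was -0.28 (adjusted p = 0.158), and with the B and T cell covariate -0.21 (adjusted p = 0.17). It had 5.41, 3.84 and 4.44 CPM in disrupted late males and 4.83, 2.97 and 3.41 CPM in disrupted late females, against 4.87, 5 and 5.29 CPM in disrupted early males and 7.08, 4.7 and 5.23 CPM in disrupted early females, with overlap. Cd68 was at -0.55 ± 0.21 (adjusted p = 0.0819), Ms4a7 at -0.70 ± 0.29 (adjusted p = 0.103) and Lyz2 at -0.63 ± 0.27 (adjusted p = 0.139). The class II chains ran from -0.47 to -0.39 and the 6 loading and control genes from -0.51 to -0.26, none with an adjusted p under 0.224. Csf1r itself was at -0.26 ± 0.16 (adjusted p = 0.322), while its ligand Csf1, the macrophage growth factor, fell by 0.51 ± 0.16 (adjusted p = 0.0386). Csf1 had 3.53, 2.36 and 2.48 CPM in disrupted late males and 4.08, 2.19 and 2.33 CPM in disrupted late females, against 3.92, 3.96 and 3.3 CPM in disrupted early males and 5.25, 3.54 and 4.45 CPM in disrupted early females, with overlap.

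**Figure D4:**
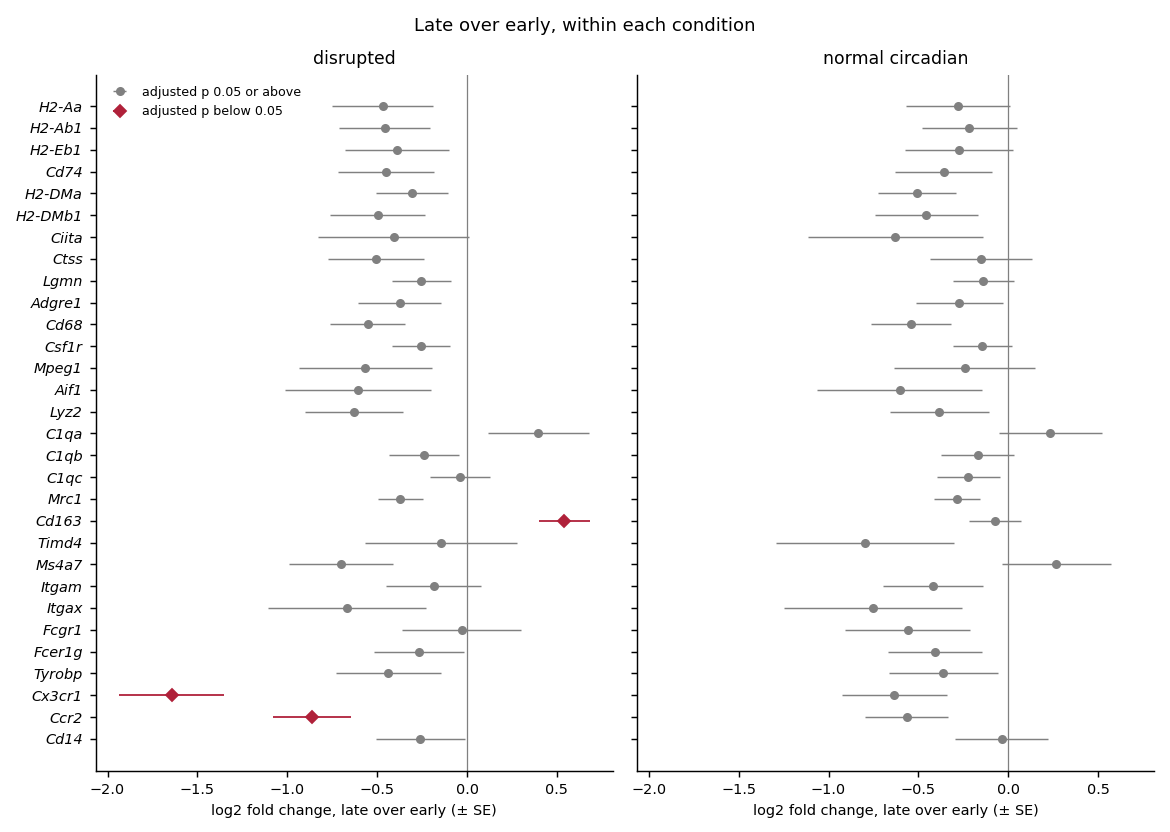
Log2 fold change, late over early, with its SE for each of the 30 genes in disrupted (left) and normal circadian mice (right), with diamonds for an adjusted p below 0.05. Cx3cr1 (-1.64), Ccr2 (-0.86) and Cd163 (0.54) are the called genes in disrupted mice, and there is none in normal circadian mice.

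Late against early within normal circadian mice gave no call among the 30 by edgeR or DESeq2, beside 0.843% of all genes called. In edgeR 5 of the 30 had an unadjusted p under 0.05, beside 1909 of the 14000 genes tested. The fitted values were again mostly negative, 28 of 30, with a median of -0.32 against 0.00 over all genes. That median was -0.21 without normal late male 2, 0.00 with the B and T cell covariate, 0.10 in males only and -0.67 in females only. The B cell genes had a median fold change of -1.88, with 14 of 14 negative and none called, and of the fibroblast and stellate cell genes Pdgfra fell by 0.39 ± 0.09 (adjusted p = 0.0365, edgeR). Their part in the values of the 30 was not tested beyond the B and T cell covariate. Ccr2 was at -0.57 ± 0.23 (adjusted p = 0.262), Cx3cr1 at -0.63 ± 0.29 (adjusted p = 0.331) and Cd163 at -0.07 ± 0.15 (adjusted p = 0.874). Cx3cr1 had 0.486, 0.17 and 0.277 CPM in normal late males and 0.658, 0.393 and 0.651 CPM in normal late females, against 0.479, 0.815 and 0.643 CPM in normal early males and 0.567, 0.824 and 0.551 CPM in normal early females. The fall of Cx3cr1 and Ccr2 was thus called in disrupted mice and not in normal circadian mice, but the test of that difference, which is the difference of condition effects, did not pass for either (adjusted p = 0.178 for Cx3cr1 and 0.693 for Ccr2, edgeR).

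Early males had less of nearly all these transcripts than early females by fitted value, 29 of 30 genes, with a median of -0.47 and Fcgr1 as the exception. None passed in edgeR, where 0.893% of all genes were called. An unadjusted p under 0.05 in edgeR was held by 11 of the 30, beside 2253 of the 14000 genes tested. DESeq2 called 2 of the 30, and it also called more of all genes than edgeR, as given below. The smallest p belonged to C1qc, at -0.58 ± 0.17 (adjusted p = 0.1, edgeR), with 3.74 ± 0.24 CPM in males and 5.63 ± 1.54 CPM in females (SD, n = 6 each) and every male below every female. The median was -0.22 without disrupted early female 1 and -0.09 with the B and T cell covariate. The B cell genes had a median of -1.74 and the adipocyte genes of -1.19, all 14 and all 9 negative and none called; their part beyond these covariates was not tested. Whether disruption acted unequally in the sexes was tested too, and none of the 30 genes passed at the early time point, where 0% of all genes were called and 783 had an unadjusted p under 0.05, nor at the late one, where 0.0286% were called. None of the 30 had an unadjusted p under 0.05 in either.

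The other genes of the pathways were taken from lists that hold none of the 30. Of 17 other class II pathway genes 13 were tested, and Rfx5, the X box factor that recruits Ciita, was the only call in the condition and time comparisons. It fell by 0.57 ± 0.12 in disrupted late against disrupted early mice (adjusted p = 0.00158, edgeR). It had 2.36, 1.84 and 2.13 CPM in disrupted late males and 2.96, 3.98 and 3.17 CPM in disrupted late females, against 3.95, 4.38 and 3.48 CPM in disrupted early males and 4.75, 3.77 and 3.39 CPM in disrupted early females. The males did not overlap and the females did. Of 32 other macrophage genes 31 were tested. Among them the efferocytosis receptor Axl was lower in early males than in early females, at -0.60 ± 0.11 (adjusted p = 0.00361, edgeR). Of 12 growth factors and chemokines only 4 passed the filter on low counts. Cx3cl1 and Csf1 fell in disrupted mice as given above, Cxcl12 fell by 0.38 ± 0.09 in normal circadian mice late against early (adjusted p = 0.045), and Il34, the other ligand of Csf1r, was not called in any comparison. Of 13 activation genes 4 were tested and none was called. Nos2, Arg1, Il1b, Tnf, Il10, Il6, Cxcl9, Cxcl10 and Acod1 were under the filter. Il6 was at 0 in 21 mice, Acod1 in 20 and Il10 in 18.

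Across mice, Cd74 and Csf1r followed genes of other cell types. The 22 mice without the lymphocyte-rich libraries were used, on log2 CPM, with p-values from permutation tests adjusted over 5 relations. The genes of a pair share their library and its depth. Mice were shuffled across all groups, not within them. Differences by condition, time and sex are therefore part of these relations, and a relation within groups was not tested. Cd74 followed Cd79a with Pearson's r = 0.875 and Spearman's rho = 0.878 (adjusted permutation p = 5e-05 for each, the smallest they can give), and r = 0.89 without the 2 mice farthest from the median of Cd79a. Cd74 followed the adipocyte hormone Adipoq with r = 0.765 and rho = 0.736 (adjusted permutation p = 0.0001 and 0.00025), and r = 0.789 without the 2 farthest mice. Csf1r, which B cells do not make, followed Cd79a with r = 0.56 and rho = 0.573 (adjusted permutation p = 0.00836 and 0.0077), and Adipoq with r = 0.649 and rho = 0.687 (adjusted permutation p = 0.00157 and 0.0009). Without the 2 farthest mice these were r = 0.553 and r = 0.745.

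**Figure D5:**
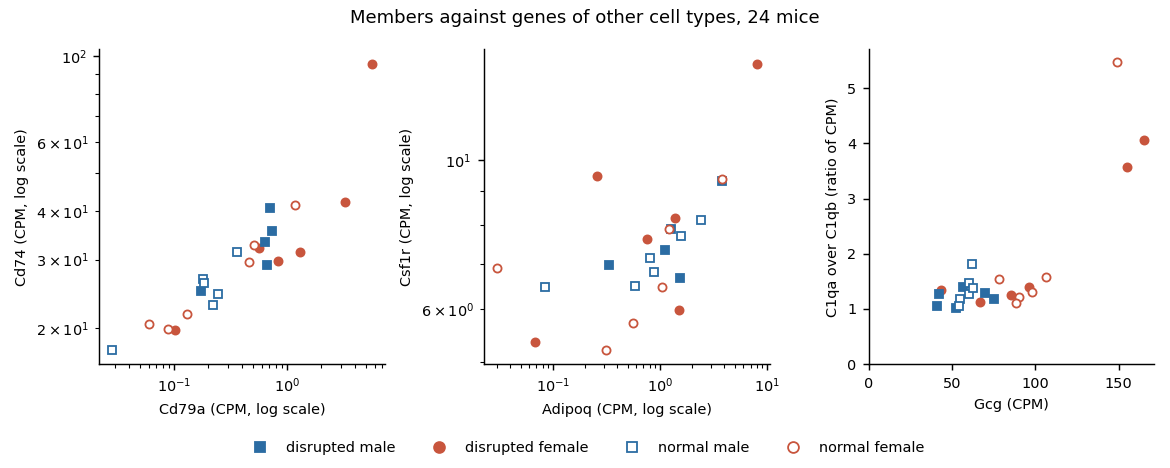
Each of the 24 mice by Cd74 and Cd79a (left), by Csf1r and Adipoq (middle; both panels have log axes, where a mouse at 0 has no point) and by the ratio of C1qa to C1qb and Gcg (right). Cd74 rises with Cd79a along the whole range, and 3 mice with a C1qa to C1qb ratio of 3.57 to 5.48 have the 3 highest levels of Gcg, 148.8 to 165.3 CPM.

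One of the C1q chains left the other chains in a few mice. C1qa, C1qb and C1qc lie next to each other on chromosome 4 (chr4:136880129-136898803 from C1qb to C1qa) and make up C1q in equal parts, and macrophages make them together. The ratio of C1qa to C1qb was 1.01 to 1.82 in 21 mice, but 5.48 in normal late female 2, 3.57 in disrupted late female 2 and 4.07 in disrupted late female 3, where C1qa had 21.4, 14.4 and 17 CPM. C1qc over C1qb was 0.799 to 0.924 in those mice, inside the 0.461 to 0.97 of all 24. The same 3 mice had the highest levels of the glucagon gene Gcg, made by islet alpha cells, at 148.8 to 165.3 CPM beside 40.8 to 106.6 CPM in the others. Over the other 21 mice the level of C1qa relative to C1qb and C1qc gave with Gcg r = 0.401 and rho = 0.421 (adjusted permutation p = 0.0715 and 0.0585), so a relation was not shown outside these 3. The pattern was chosen after the values were seen, and no cause was tested. Both disrupted mice of the 3 are late females, so the positive C1qa value in disrupted mice, 0.40 ± 0.28 late over early (adjusted p = 0.396, edgeR), contains them.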

How the data were processed

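RNA from whole pancreas of 24 mice was sequenced after a modified RNeasy preparation and TruSeq libraries, per the labels' protocols. The deposited table holds the authors' RSEM expected counts per gene, not normalized. Per the submitters' processing notes, which give neither role nor order, the tools included STAR 2.5.3a, bcl2fastq 2.20, edgeR 3.28.0 and RSEM, and the build was GRCm38.p5. The sources used here name no annotation or strand setting. Symbols and coordinates came from GENCODE M21 (51633 of 51912 genes).

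Expected counts were rounded (7.97% were not whole), filtered with filterByExpr (14000 genes kept), scaled by TMM and tested with edgeR 4.0.16 in R 4.3.3, by robust quasi-likelihood with 8 group means, sexes weighted equally, at a Benjamini-Hochberg adjusted p of 0.05. The test was tried on simulated data. Alternatives were upper quartile and RLE scaling, no filter, DESeq2 1.42.0, a replicate block, lymphocyte or adipocyte covariates, lymphocyte-rich libraries left out, each sex alone and each mouse left out. Correlations used 100000 permutations in scipy 1.17.1.

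All 30 genes are accounted for, and values are given for called genes, the most abundant and smallest-p gene of each role, and up to 4 called genes of other lists. The genes and lists were chosen with earlier results of these data known. Depth limits the low genes, some with under 10 counts in a mouse. Some results for genes outside the 30 are not reported here.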

Additional observations from a re-analysis of the deposited data

Results flagged for a closer look

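Within each condition and time point the 6 mice were screened for a value set off from the rest, and 29 of 120 such groups held one. The cut-off flags about 1 in 20, or 6, only for independent values with a normal spread. Here the sexes were pooled and the genes share their mice, so the 29 were not tested against chance. Of the 29, 20 were high values of disrupted early female 1. Its class II genes stood at 37.64 CPM for H2-Aa, 26.26 for H2-Ab1, 25.57 for H2-Eb1, 95.55 for Cd74, 2.807 for H2-DMa, 2.964 for H2-DMb1, 3.829 for Ciita and 9.233 for Ctss. Its macrophage genes stood at 13.93 CPM for Csf1r, 11.3 for Mpeg1, 0.6557 for Aif1, 50.57 for Lyz2, 11.02 for C1qb, 8.551 for C1qc, 7.082 for Mrc1, 3.803 for Cd163, 1.312 for Timd4, 1.521 for Itgax, 2.649 for Fcer1g and 2.649 for Tyrobp.

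Normal early female 3 was set off at 4.955 CPM for Ctss, 5.423 for Mpeg1, 31.66 for Lyz2 and 1.486 for Cd14. Disrupted late male 1 was set off at 1.32 CPM for Timd4 and 3.427 for Itgam. C1qa was set off at 21.39 CPM in normal late female 2, Timd4 at 0.4003 CPM in normal late male 3, and Ccr2 was low at 0.5204 CPM in normal early male 3.

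The change of Cd163 from early to late in disrupted mice differed between the sexes, males minus females, by 1.146 on the log2 scale (adjusted p = 0.0457, edgeR). Without disrupted early female 1 the difference did not pass (adjusted p = 0.125, edgeR). In normal circadian mice Cd163 also rose in males and fell in females, without overlap, and that difference was not tested.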

How the results depend on the processing

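Members of the group past the threshold numbered 0 in most settings and comparisons. Exceptions, beside 0 in the report, were 1 late and 1 in the difference of condition effects without the filter, 1 and 1 without the lymphocyte-rich libraries, 1 in the difference with the lymphocyte covariate, 1 early, 1 in the difference and 1 between the sexes with the adipocyte covariate, and 2 between the sexes with DESeq2. Beside 3 in disrupted mice late against early, where 1948 of all genes were called, the replicate block gave 5 (1 higher, 4 lower). The count of all genes with the block in that comparison is not among those listed below as moved by over 1.5 times. Beside 1 in the comparison of that change between males and females, the lymphocyte covariate gave 4 and the fit without the lymphocyte-rich libraries 0. Leaving out 1 mouse gave 0 to 0 members early, 0 to 1 late, 0 to 1 in the difference and 3 to 6 in disrupted mice late against early. Over all genes, the last of these comparisons had 1502 to 2053 calls in those fits. Members numbered 0 to 0 in normal mice, 0 to 0 for condition by sex at either time, 0 to 1 for the change by sex and 0 to 0 between the sexes. Cd163 late against early in disrupted mice turned to -0.044 in females only. Replicate numbers did not pair the mice: correlations of same-numbered mice ran from -0.209 to 0.219 and 3 of 12 exceeded 0.1; beyond the count of 5, in which Mrc1 (-0.382, adjusted p = 0.0184) joined, the block changed no other count of members. Counts of all genes moved by over 1.5 times late (333 without the filter, 311 without the lymphocyte-rich libraries, beside 189), in normal mice late against early (211 without the filter, 249 with DESeq2, 63 with the lymphocyte and 68 with the adipocyte covariate, beside 118), between the sexes (301 without the filter, 258 with DESeq2, beside 125), in the change by sex (276 without the filter, 276 with DESeq2, 290 with the lymphocyte covariate, 44 without the lymphocyte-rich libraries, beside 130), for condition by sex late (16 without the filter, 32 with DESeq2, 2 with the block, beside 4), and in fits of males only (164 early, 42 late, 187 in the difference, 852 in disrupted and 240 in normal mice late against early) and females only (172, 23, 250, 1084 and 0), which hold fewer mice. Leaving out 1 mouse gave 71 to 261 genes late, 38 to 162 in normal mice late against early, 0 to 44 for condition by sex late, 5 to 161 in the change by sex and 55 to 220 between the sexes. Upper quartile scaling turned the split of calls in disrupted mice late against early to 744 higher and 1246 lower, beside 1031 and 917, and early to 346 and 282, beside 293 and 346. The causes were not tested.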

Other observations

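Dendritic cells, the other main class II carriers, had 5 of 10 listed genes above the filter on low counts. Zbtb46, a transcription factor of conventional dendritic cells that endothelial cells also carry, was higher in disrupted early mice, at 4.03, 5.57 and 5.18 CPM in males and 4.59, 5.14 and 3.84 CPM in females, against 2.71, 2.17 and 3.4 CPM in normal early males and 2.81, 2.81 and 3.91 CPM in normal early females. The log2 fold change was 0.68 ± 0.12 (adjusted p = 0.000612, edgeR). Its condition effect differed between the time points, late minus early, by -1.10 ± 0.17 (adjusted p = 9.46e-05). In disrupted mice it fell by 0.67 ± 0.12 late against early (adjusted p = 0.000212), and Fscn1, an actin bundler of mature dendritic cells that other cells also carry, fell by 0.96 ± 0.19 (adjusted p = 0.00128). The endothelial receptor Kdr moved in the same comparisons, at 0.23 ± 0.06 in disrupted against normal early mice (adjusted p = 0.0362) and -0.43 ± 0.06 late against early in disrupted mice (adjusted p = 4.65e-05), and its part in the values of Zbtb46 was not tested.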
